A study of Mus musculus with 26 samples.

Results

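The miRNAs described here are those encoded within the Hox gene clusters: mir-10a, mir-10b, mir-196a-1, mir-196a-2, mir-196b and mir-615. They were chosen by name (mmu-mir-10a, mmu-mir-10b, mmu-mir-196a-1, mmu-mir-196a-2, mmu-mir-196b and mmu-mir-615) among the miRNA entries of a small RNA count table of mouse hippocampus, and all 6 were listed, among 1054 miRNA entries. Hox genes encode transcription factors that give cells their position along the head to tail axis of the embryo. They lie in clusters, and the miRNAs between and inside them share the domains in which the neighbouring genes are used: the hindbrain, the spinal cord and the trunk. The forebrain, from which the hippocampus develops, lies ahead of these domains. The levels of these miRNAs in hippocampus are therefore read against the level at which a miRNA is barely counted.

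The 26 libraries were made from the dorsal (dHC) and ventral (vHC) hippocampus, both hemispheres, of male C57BL/6J mice aged 2 to 3 months. Control mice stayed in the homecage, and stressed mice swam for 6 min in water of 18 °C and were collected 45 mins after the start of the swim. The vHC gave 8 control and 6 swim libraries and the dHC gave 6 control and 6 swim libraries, spread over 3 dates that the labels call blocks. Each block had 2 libraries per group, except that block 1 had 4 of control vHC. The labels do not tie libraries to mice, so p-values measure the spread between these libraries. Of the 26 libraries, 24 form 12 pairs of adjacent numbers, an odd vHC number and the next even dHC number of the same condition and block. Whether such a pair is 1 mouse is not stated, and the tests below treat all libraries as separate. Libraries are named by group and by the library number of their label.

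Each value is an expected count, meaning that a read which fits several annotated RNAs can be shared out among them as fractions. One entry stands for one hairpin precursor, and the table does not separate its 5p and 3p arms. Normalized CPM, which scales each library to a total of 1 M miRNA counts, was computed with the TMM scaling of edgeR. The miRNA total was between 465387 and 4819724 per library. The shallowest library was control dHC library 24, in which 3 counts correspond to 8.60 CPM, against a median of 1.17 CPM over the 26 libraries. The level of 3 counts was used as the floor below which a miRNA was called near zero. Entries known for neurons and hippocampus (the mir-124, mir-9, mir-128 and mir-138 copies, all 10 tested) summed to between 159979 and 331399 CPM per library, which goes with the labelled tissue. In bulk tissue, fewer cells of a type and less RNA per cell cannot be told apart.

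The mature sequences show which members can be distinguished at all. They are those of RefSeq for GRCm38.p6, which held mature sequences for 6 of the 6 members and hairpins for 5. Each is printed 5′ to 3′ with its seed, bases 2 to 8, in capitals. The seed is the stretch by which a miRNA mainly pairs with its target mRNAs.
miR-10a-5p: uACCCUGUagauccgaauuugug
miR-10b-5p: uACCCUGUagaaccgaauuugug
miR-196a-5p: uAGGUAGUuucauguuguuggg
miR-196b-5p: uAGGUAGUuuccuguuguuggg
miR-615-3p: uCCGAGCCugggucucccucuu
Counting from 1 at the 5′ end, miR-10a-5p and miR-10b-5p differed only by U12A, with the base of miR-10a-5p given first. miR-196a-5p and miR-196b-5p differed only by A12C, with the base of miR-196a-5p given first. mir-196a-1 and mir-196a-2 carry the same miR-196a-5p. The seed ACCCUGU was found in 2 of the 1679 mature miRNA names of the table, those of miR-10a-5p and miR-10b-5p. The seed AGGUAGU was likewise found in 2, those of miR-196a-5p and miR-196b-5p, and the seed of miR-615-3p in 1. The other arms of the mir-10 hairpins are less alike. miR-10a-3p and miR-10b-3p differed by A3G, U9A and A10U, of which only A3G lies in the seed.
miR-10a-3p: cAAAUUCGuaucuaggggaaua
miR-10b-3p: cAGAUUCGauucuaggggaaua

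2 abundant miRNA groups resemble the members in sequence, and are shown because reads of an abundant miRNA could be taken for a scarce one. miR-100-5p and miR-99a-5p, relatives of the mir-10 family, share the middle of miR-10a-5p but not its seed. Below, capitals mark the longest run that miR-10a-5p shares with miR-100-5p, 11 bases long.
miR-10a-5p: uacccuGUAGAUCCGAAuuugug
miR-100-5p: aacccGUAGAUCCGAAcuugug
miR-10a-5p shared 10 bases with miR-99a-5p and 5 with miR-99b-5p. miR-10b-5p, through its own base 12, shared 5 bases with miR-100-5p and with miR-99a-5p and 10 with miR-99b-5p, marked here.
miR-10b-5p: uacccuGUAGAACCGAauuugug
miR-99b-5p: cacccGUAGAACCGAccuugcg
miR-196a-5p holds the run AGGUAGU as its seed from base 2, and let-7a-5p holds the same run from base 3. Here capitals mark those 7 shared bases.
miR-196a-5p: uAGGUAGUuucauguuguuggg
let-7a-5p: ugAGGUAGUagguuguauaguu

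The members sit in all 4 Hox clusters, by GENCODE vM21 on GRCm38. Mir10a lies on chromosome 11 (96317165 to 96317274, plus strand), between Hoxb5 and Hoxb4, 993 bp from Hoxb4 and inside no annotated gene. Mir10b lies on chromosome 2 (74726070 to 74726137, plus strand), within introns of Hoxd3 and Hoxd4 transcripts. Mir196a-1 lies on chromosome 11 (96265164 to 96265265, plus strand), between Hoxb13 and Hoxb9, 6192 bp from Hoxb9. Mir196a-2 lies on chromosome 15 (102973350 to 102973434, plus strand), between Hoxc10 and Hoxc9 and within an intron of a long Hoxc5 transcript. Mir196b lies on chromosome 6 (52230081 to 52230165, minus strand), within an exon of a Hoxa9 transcript and 1032 bp from Hoxa10. Mir615 lies on chromosome 15 (103014910 to 103015001, plus strand), within an intron of Hoxc5.

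Of the 6 members, 4 were near zero in hippocampus: mir-196a-1, mir-196a-2, mir-196b and mir-615. Their median count over the 26 libraries was 3 or less, and 524 of the 1054 miRNA entries (49.7%) were equally scarce. The same 4 failed edgeR's filter on low counts, and mir-10a and mir-10b passed it. Only mir-10a and mir-10b were therefore tested, among 463 entries. By pooled count, mir-10a ranked 304 and mir-10b 308 of the 1054 entries, mir-615 ranked 550, and the mir-196 entries ranked 897, 965 and 1044.

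**Figure D1:**
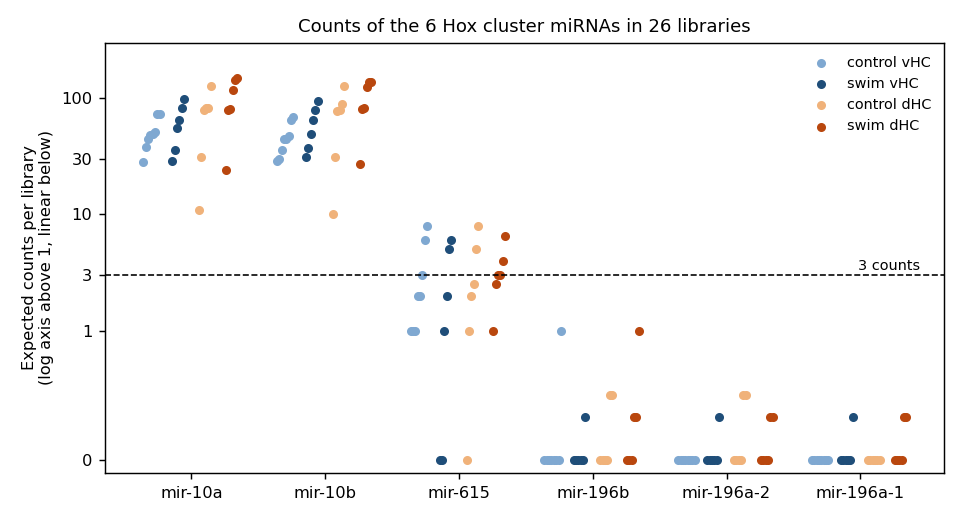
Expected counts (vertical axis, logarithmic above 1 and linear below) of the 6 members in each of the 26 libraries, coloured by group, with a dashed line at 3 counts. mir-10a and mir-10b lie above the line in 26 of 26 libraries, mir-615 lies above it in 8, and no mir-196 entry exceeds 1 count in any library.

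The mir-196 entries, whose miRNAs are known as repressors of Hoxb8, were at or next to 0 throughout. mir-196a-1 had 0.99 counts in all 26 libraries together, mir-196a-2 had 1.99 and mir-196b had 3.99. The 3 entries summed to 6.97 counts of 65633823 miRNA counts, or 0.106 per 1 M counts (95% exact Poisson interval 0.0429 to 0.220, counting error only). No library had more than 1 count over the 3 entries together, and 19 of 26 libraries had 0.

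The counts of the other 7 libraries show how they were shared out. In swim vHC library 27 and in swim dHC libraries 28 and 30, each of the 3 entries held 0.33. In control dHC libraries 14 and 26, mir-196a-2 and mir-196b held 0.5 each and mir-196a-1 held 0. In control vHC library 1 and swim dHC library 16, mir-196b alone held 1 count. Each of the 7 libraries thus holds about 1 count, and in 5 of them it was divided among entries. For the divided counts, which of the entries that shared them was the source cannot be told apart.

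By region, the mir-196 sum was 1.99 counts over the 14 vHC libraries and 4.98 over the 12 dHC libraries, or 0.0595 and 0.155 per 1 M counts. The intervals were 0.00724 to 0.216 in vHC and 0.0505 to 0.363 in dHC, which overlap. By block, the sum was 3.00, 0.00 and 3.97 counts in blocks 1, 2 and 3. When no filter was applied, mir-196b was fitted from the few counts left after rounding, with no usable fold, and its adjusted p was 1.0 for region, 0.791 for stress and 0.473 for block (edgeR). At about 1 count per library or none, these counts cannot show a difference of that kind. The floor of 3 counts corresponds to between 0.555 CPM in the deepest library and 8.60 CPM in the shallowest.

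mir-615 had 76.5 counts in all, 1.17 per 1 M counts over the pooled libraries. It had a median of 2.25 counts per library, which is under the floor, and a median of 1.07 CPM. It is near zero by its count, and just above a limit of 1 CPM, by which 3 of the 6 members and 47.1% of all miRNA entries would be scarce. In control vHC it had 1, 2 and 8 counts (lowest, median and highest library), and in swim vHC 0, 1.5 and 6. In control dHC it had 0, 2.25 and 8 counts, and in swim dHC 1, 3 and 6.5. The 4 groups overlapped over nearly their whole range, and 2 libraries of each group were above 3 counts.

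Pooled, mir-615 stood at 1.14 per 1 M counts in vHC and 1.197 in dHC, with intervals of 0.804 to 1.56 and 0.836 to 1.62. It stood at 0.896, 1.44 and 1.24 per 1 M counts in blocks 1, 2 and 3, and those intervals overlapped too. When no filter was applied, the log2 difference between dHC and vHC was -0.016 (SE 0.36, 95% interval -0.73 to 0.70, adjusted p = 1.0, edgeR). Without the filter, its swim minus control log2 difference was -0.91 in vHC (SE 0.51, adjusted p = 0.662, edgeR) and -0.30 in dHC (SE 0.50, adjusted p = 1.0, edgeR). The fitted sign in dHC is opposite to that of the group means, which were 0.950 CPM in control and 1.34 CPM in swim libraries. The intervals are wide, from -1.96 to 0.14 in vHC and from -1.32 to 0.72 in dHC.

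mir-10a and mir-10b, known for their use in the hindbrain, spinal cord and trunk, were counted in every library. mir-10a had between 11 and 150.5 counts per library (median 69.2), and mir-10b between 10 and 137.5 (median 64.75). The lowest counts of both belonged to control dHC library 24. On the CPM scale, mir-10a ran from 16.2 to 53.0 with a median of 23.8, and mir-10b from 14.2 to 54.3 with a median of 22.3.

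These levels were low beside those of their sequence relatives in the mir-99, mir-100 and mir-125 families, which are transcribed from gene clusters outside the Hox loci. The median level of mir-99b was 4405 CPM, that of mir-100 6901 CPM and that of mir-99a 8795 CPM. The mir-99a, mir-99b and mir-100 medians were between 185 and 370 times that of mir-10a. The mir-125 entries, with medians between 17590 and 18098 CPM, were higher still. At the other end, 7 of 8 listed entries known from pluripotent cells (the mir-302 and mir-290 groups) were present and all 7 were near zero. Together they summed to between 0 and 5.71 CPM per library, a range around that of mir-615.

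**Figure D2:**
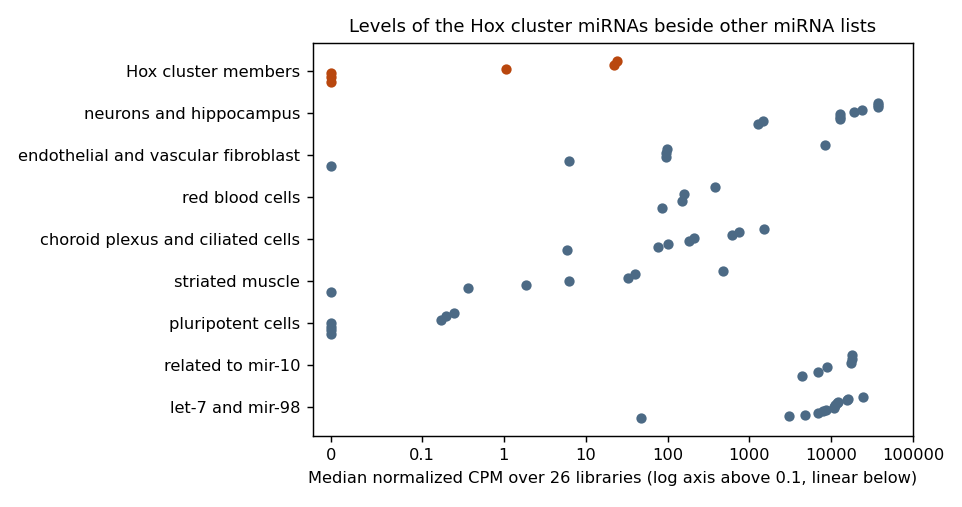
Median normalized CPM over 26 libraries (horizontal axis, logarithmic above 0.1 and linear below) of each entry of the Hox cluster members and of 8 lists of other miRNAs; each point is 1 entry. mir-10a and mir-10b, at 23.8 and 22.3 CPM, lie between the near-zero pluripotent list and the neuronal and sequence-related lists.

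The counts of mir-10a and mir-10b were almost equal in each library. Over all libraries they totalled 1777 and 1724 counts. mir-10a was higher in 15 libraries, lower in 9 and equal in 2, and the largest gap in any library was 14 counts. The log2 ratio of the 2 entries had an SD of 0.13 between libraries. Its variance was 0.197 of what counting error alone gives for separately counted reads. The 2 entries were closer than separately counted reads would be.

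Among entries that carry an identical mature miRNA, the same variance ratio was 0.000409 for mir-9-1 and mir-9-2 and 0.000173 for mir-124-1 and mir-124-2. It was 4.74, above that of the mir-10 pair, for mir-125b-1 and mir-125b-2. For related entries with different mature miRNAs it was 40.6 (mir-99a and mir-100), 220 (mir-99a and mir-99b) and 318 (mir-125a and mir-125b-1). This ratio grows with the number of counts, which was far lower for the mir-10 pair than for the other pairs. The SD of the log2 ratio gave another order: it was 0.088 for mir-99a and mir-100 and 0.025 for mir-125b-1 and mir-125b-2, both below the 0.13 of the mir-10 pair. Sharing of reads between mir-10a and mir-10b was not tested.

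Both entries hold fractional counts, but not of the same kind. mir-10a had whole counts in 12 libraries, counts ending in 0.5 in 4 and other fractions in 10. mir-10b had whole counts in 16 libraries, counts ending in 0.5 in 10 and other fractions in 0. The longest run shared by both 5p arms was 11 bases and that shared by the hairpins was 15. The authors' minimum read length was applied before the molecular tags were removed, so the shortest sequence that was counted is not known. Why the counts hold fractions was not tested. The level of either entry alone is uncertain, and results for both are not given as independent of each other.

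**Figure D3:**
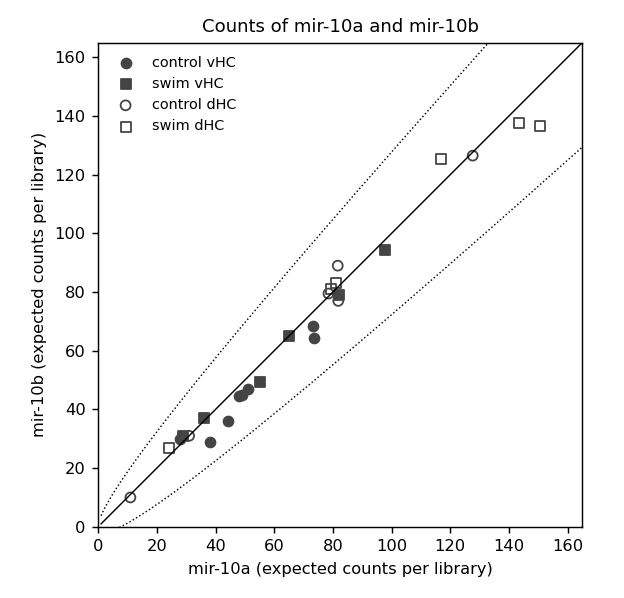
Expected counts of mir-10a (horizontal axis) and mir-10b (vertical axis) in each of the 26 libraries, with symbols for the 4 groups. The solid line marks equal counts and the dotted lines the 95% range of counting error for 2 separately counted entries; all points lie within it, with a largest gap of 14 counts.

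The ratio of mir-10b to mir-10a was compared between groups by 5 two-sided permutation tests, as log2 ratios. It was lower in control vHC (-0.15 ± 0.15, SD, n = 8) than in swim vHC (-0.021 ± 0.087, n = 6), by 0.13. The exact permutation test gave p = 0.0653, and 0.109 adjusted over the 5. In control mice the ratio was higher in dHC by 0.14, with an exact permutation p = 0.0606 and 0.109 adjusted. Over all mice it was higher in dHC by 0.10, with a permutation p = 0.0452 and 0.109 adjusted. In swim mice the dHC to vHC difference was 0.043, and the swim to control difference in dHC was 0.039 (exact permutation p = 0.455 and 0.517). In blocks 1, 2 and 3 the first difference was 0.0080, 0.073 and 0.41. The second was 0.0093, 0.14 and 0.35, and the third 0.025, 0.16 and 0.13. With labels exchanged only within blocks, the adjusted permutation p was 0.198 for each of these 3. None passed after adjustment. Control vHC library 1 decided this in part, and it is 1 of 8 control vHC libraries. Without it the first 3 differences were 0.17, 0.17 and 0.12. Their adjusted permutation p, with labels exchanged across blocks, was 0.0233, 0.0233 and 0.0327.

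The region comparison asks whether the members differ between dHC and vHC, which serve different circuits. mir-10a and mir-10b were both higher in dHC, mir-10b the more clearly. In vHC, mir-10b ran at 14.2, 19.02 and 27.3 CPM in control mice (lowest, median and highest) and at 15.2, 20.8 and 37.0 CPM in swim mice. In dHC it ran at 19.7, 23.3 and 38.6 CPM in control mice and at 21.1, 33.9 and 54.3 CPM in swim mice. The regions overlapped: 10 of 12 dHC libraries were above the vHC median, and 4 of 12 were above the highest vHC library. Of all 463 entries tested, 16 (3.46%) had regions that did not overlap, and neither mir-10 entry was among them.

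mir-10b was higher in dHC by 0.49 on the log2 scale (SE 0.15, 95% interval 0.19 to 0.79, adjusted p = 0.00968, edgeR quasi-likelihood test with Benjamini-Hochberg adjustment), or 40.5%. mir-10a was higher by 0.39 (SE 0.15, 95% interval 0.077 to 0.70, adjusted p = 0.0469, edgeR), or 30.7%. Its CPM in vHC was 16.2, 21.6 and 29.2 in control mice and 16.9, 19.8 and 38.3 in swim mice. In dHC it was 18.8, 23.9 and 38.9 in control mice and 18.7, 33.7 and 53.0 in swim mice. Here 9 of 12 dHC libraries were above the vHC median and 4 above the highest vHC library. With the 2 entries summed, an alternative added after seeing the data, the difference was 0.44 (SE 0.15, adjusted p = 0.0202, edgeR).

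Both tested members were thus called between regions. Of the 463 entries tested, 36.1% were called between regions, 17.5% as higher in dHC and 18.6% as lower, so a call between regions was common in this table. The call for mir-10a stood near the threshold. It was lost in 15 of the 26 fits that left out 1 library, with an adjusted p of up to 0.0978 (without control dHC library 8, edgeR). Without the shallow control dHC library 24, the log2 difference was 0.37 for mir-10a (adjusted p = 0.0519, edgeR) and 0.48 for mir-10b (adjusted p = 0.0100, edgeR). The call for mir-10b was kept in 26 of 26, with an adjusted p between 0.00364 and 0.0246 (edgeR). Both were lost when the block was dropped from the model (adjusted p = 0.134 for mir-10a and 0.0533 for mir-10b, edgeR), and when 2 surrogate variables stood in its place (0.112 and 0.0839, edgeR). The second of these variables followed region, which accounted for 91.4% of its variance.

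Within each block, the mean log2 CPM of mir-10b was higher in dHC by 0.69, 0.22 and 0.61 in blocks 1, 2 and 3. That of mir-10a was higher by 0.67, 0.059 and 0.47. The direction was the same in 3 of 3 blocks and the libraries of both regions overlapped in each. Block 2 gave the smallest difference for both.

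Taken separately, neither condition reached the threshold. In control mice the dHC minus vHC log2 difference was 0.41 for mir-10b (SE 0.21, adjusted p = 0.137, edgeR) and 0.25 for mir-10a (SE 0.21, adjusted p = 0.394, edgeR), where 22.5% of entries were called (7.78% higher, 14.7% lower). In swim mice it was 0.57 for mir-10b (SE 0.21, adjusted p = 0.0532, edgeR) and 0.52 for mir-10a (SE 0.22, adjusted p = 0.0874, edgeR), where 20.3% were called (7.56% higher, 12.7% lower). In this fit the swim value exceeded the control value by 0.27 for mir-10a and 0.15 for mir-10b. The interaction itself, given below from the fit with surrogate variables, was not called.

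Other lists also held entries called between regions, as were 36.1% of all 463 entries. Their part in the mir-10 result was not tested. Of 10 neuron and hippocampus entries, 2 were higher in dHC and 2 lower. Of 8 entries known from choroid plexus and ciliated cells, 5 were higher in dHC and 3 lower, with summed levels of 2600 to 3695 CPM in vHC and 2693 to 6234 CPM in dHC. Of 4 striated muscle entries tested, 2 were higher and 1 lower, with summed levels of 383 to 673 CPM in vHC and 553 to 870 CPM in dHC. The medians of the 7 listed muscle entries ran from 0 CPM (mir-208b) to 476 CPM (mir-1a-1). Of 5 endothelial and vascular fibroblast entries tested, 3 were lower in dHC. The summed levels, 4096 to 10965 CPM in vHC and 6312 to 11601 CPM in dHC, did not follow these calls. mir-126a was the highest entry of that list, with a median of 8290 CPM. The medians of mir-199a-1, mir-199a-2 and mir-199b were 96.9, 97.2 and 94.8 CPM. Of 4 red blood cell entries, 2 were lower, at 749 to 998 CPM in vHC and 645 to 951 CPM in dHC.

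Of the 6 sequence relatives of mir-10, 2 were higher in dHC and 0 lower, against 17.5% and 18.6% of all 463 entries. mir-99b, which lies in a cluster with let-7e and mir-125a, was higher by 0.23 (SE 0.089, adjusted p = 0.0411, edgeR). mir-99a was higher by 0.20 (SE 0.073, adjusted p = 0.0293, edgeR). mir-125a, mir-125b-1 and mir-125b-2 had log2 differences of -0.17, -0.19 and -0.18, which did not pass. The median of the list was -0.013 and that of all 463 entries 0.0029. Of the 14 let-7 and mir-98 entries, 0 were called between regions by edgeR and 3 had an unadjusted p under 0.05. The AGGUAGU run of miR-196a-5p was looked for only in let-7a-5p.

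The stress comparison asks whether the swim changed these miRNAs within 45 mins. No change of mir-10a or mir-10b passed the test, in either region. With stress and its interaction with region tested together, the adjusted p was 0.719 for both entries (edgeR), from an unadjusted p of 0.0563 for mir-10a and 0.0256 for mir-10b. Of the 463 entries 0 (0%) were called, 17 had an unadjusted p under 0.05, and DESeq2 called 0 with 16 under 0.05.

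In vHC, where the CPM values above show swim and control libraries over a shared range, the swim minus control log2 difference was 0.26 for mir-10b (SE 0.20, 95% interval -0.14 to 0.66, adjusted p = 0.695, edgeR). For mir-10a it was 0.12 (SE 0.20, 95% interval -0.28 to 0.52, adjusted p = 0.823, edgeR). The highest swim library of both entries in vHC was library 15, and without it the value for mir-10a was -0.061. By edgeR, 35 entries had an unadjusted p under 0.05 in vHC and 0 were called, and by DESeq2 39 and 0.

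In dHC the differences were larger in size and no more called. The log2 difference was 0.52 for mir-10b (SE 0.20, 95% interval 0.11 to 0.93, unadjusted p = 0.0159, adjusted p = 0.982, edgeR). It was 0.50 for mir-10a (SE 0.20, 95% interval 0.083 to 0.92, unadjusted p = 0.0209, adjusted p = 0.982, edgeR). As a fold these were 1.43 and 1.42. With 17 of 463 entries under an unadjusted p of 0.05 in dHC by edgeR, and 18 by DESeq2, 0 were called by either. The mean CPM of mir-10b was 25.7 ± 7.07 in control dHC and 35.3 ± 13.5 in swim dHC (SD, n = 6 each). The difference of the means was smaller than the SD of the swim libraries. That SD is a spread of single libraries, not an error of the mean, and holds block differences as well. The mir-10b mean of swim dHC was 49.3, 22.7 and 33.9 CPM in blocks 1, 2 and 3.

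The interaction was 0.38 for mir-10a (SE 0.28) and 0.26 for mir-10b (SE 0.28), with an adjusted p of 0.952 for both (edgeR). A difference between dHC and vHC in the response to the swim was therefore not detected. By edgeR 0 entries were called for the interaction and 22 had an unadjusted p under 0.05, and by DESeq2 0 and 20.

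The blocks did not share a direction. In block 1 the swim libraries were higher for mir-10b by 0.79 in vHC and 0.74 in dHC (log2 CPM), and in block 3 by 0.48 and 0.58. In block 2 the swim minus control values were -0.47 in vHC and -0.098 in dHC. mir-10a gave 0.78, -0.55 and 0.065 in vHC and 0.70, -0.20 and 0.61 in dHC for blocks 1, 2 and 3. Each of these rests on 2 swim libraries and 2 control libraries, or 4 control libraries in vHC of block 1, so no within-block test was made.

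**Figure D4:**
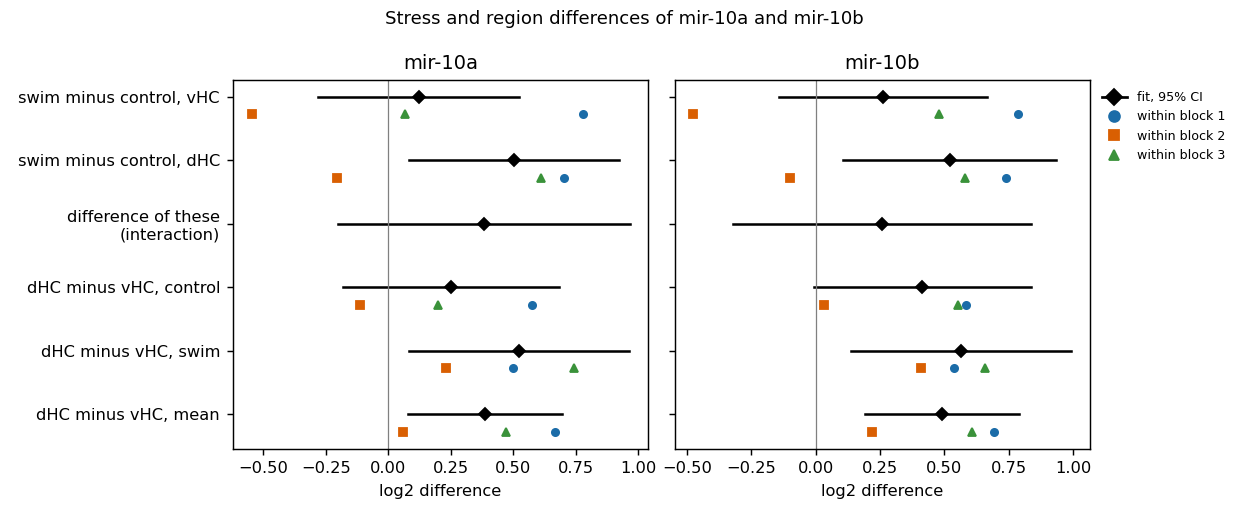
Log2 differences (horizontal axis) of mir-10a and mir-10b for each comparison: black diamonds and lines give the fitted value with its 95% interval, and coloured symbols below give the difference of mean log2 CPM within block 1, 2 and 3. The dHC minus vHC means over all mice are above 0 in 3 of 3 blocks, and the swim minus control values of block 2 are below 0 in both regions.

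mir-10a and mir-10b also differed between blocks. Their medians were 30.6, 21.5 and 20.5 CPM for mir-10a and 29.1, 21.7 and 20.8 CPM for mir-10b in blocks 1, 2 and 3. Relative to block 1, mir-10b was lower by 0.51 in block 2 and by 0.48 in block 3 on the log2 scale (SE 0.18 each), and mir-10a by 0.51 and 0.46 (SE 0.18 each). The test over the 3 blocks gave an adjusted p of 0.0190 for mir-10b and 0.0260 for mir-10a (edgeR). It called 246 of the 463 entries, or 53.1%, so that a block difference was the commoner outcome. The highest library of each of the 4 groups belonged to block 1, for both entries.

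**Figure D5:**
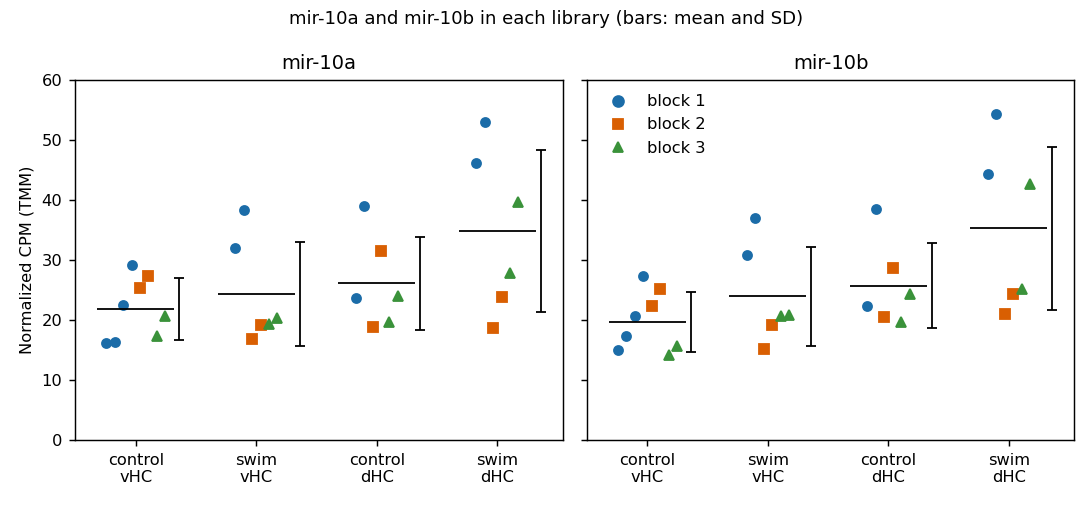
Normalized CPM (vertical axis, from 0) of mir-10a and mir-10b in each library by group, with colour and symbol for block; horizontal bars are group means and vertical bars SD (n = 8, 6, 6 and 6). Swim dHC has the highest mean for both, 34.9 and 35.3 CPM, with its 2 highest mir-10a libraries from block 1, and all groups overlap.

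Part of the spread is counting error. The SD of mir-10b CPM was 4.94 in control vHC, 8.20 in swim vHC, 7.07 in control dHC and 13.5 in swim dHC. Counting alone would give 2.97, 3.21, 4.43 and 3.80 CPM. The observed SD was thus between 1.60 and 3.56 times the counting error, largest in swim dHC. For mir-10a the same factor was between 1.63 and 3.54. The counting error here is that of distinct pairs of sequence and molecular tag, on the assumption that each was counted once.

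Across the 26 libraries, the entry most like mir-10a was mir-10b (r = 0.97 for log2 CPM), as their nearly equal counts require. Next, among the other 461 tested entries, came mir-99b (r = 0.71), mir-1843b (0.68) and mir-186 (0.68). For mir-10b, mir-99b (0.70) and mir-186 (0.67) stood nearest. Both share depth, block and region with the members in these libraries. Once block and group means were removed, mir-200b, a miRNA known from epithelia, stood nearest to both, with r of 0.65 for mir-10a and 0.68 for mir-10b. For log2 CPM before that removal, the mir-125 entries ran the other way, with r between -0.53 and -0.58 for both members. These values describe 26 libraries and were not tested.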

How the data were processed

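Small RNA of 26 hippocampal libraries was analysed, with groups, regions and blocks taken from the labels (0 columns were unmatched). The authors prepared libraries with Nextflex v3, trimmed reads with cutadapt, collapsed reads identical in sequence and molecular tag, and quantified them with Sports; its build is not given in the sources used here beyond GRCm38 in the submitters' processing notes. They deposited expected counts without normalization, which were rounded to whole numbers for the tests. The members and lists were chosen with earlier results of these data known.

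Tests used edgeR 4.0.16 (R 4.3.3): TMM over miRNA counts, filterByExpr (minimum count 10, total 15), quasi-likelihood fits and Benjamini-Hochberg adjustment over 463 entries at a threshold of 0.05. As in the study's methods, stress was fitted with region, their interaction and 2 surrogate variables (sva 3.50.0). The null model for these variables, which held region, was chosen here. Region and block were fitted with block in place of these variables, since the second variable followed region (91.4%). Standard errors came from the quasi-likelihood variance. In simulated counts for the region comparison of 463 entries, 199 of 200 entries changed 2-fold and 175 of 200 changed 1.5-fold were called. The simulated counts held no block differences. Both folds were above those fitted for mir-10a and mir-10b (1.31 and 1.40), so these shares do not apply to the 2 members. Ratios were compared by permutation tests (exact, or 100000 resamples; scipy 1.17.1). Named miRNAs were the members, their listed relatives and the 3 entries nearest to each tested member by Pearson's r; of the latter, some are not reported here.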

Additional observations from a re-analysis of the deposited data

How the results depend on the processing

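Alternatives changed the size factors, library size, tool (DESeq2 1.42.0), filter, rounding and covariates, or left out 1 of the 26 libraries; an intercept-only null model for the surrogate variables and the sum of both mir-10 entries were added after seeing the data. No library number occurs in more than 1 group. The 12 pairs of adjacent numbers were used as a replicate block in a fit added after seeing the data. It called both members for region, with log2 differences of 0.36 and 0.47 for mir-10a and mir-10b (adjusted p = 0.0280 and 0.00446, edgeR). In swim mice it called 2 members (adjusted p = 0.0355 and 0.0234, edgeR). Among all 465 entries, this fit called 186 for region and 122 in swim mice. The same 24 libraries without the pair block gave 1 member for region (adjusted p = 0.0895 for mir-10a and 0.0207 for mir-10b, edgeR), among 178 of 465 entries called. dHC was higher in 10 of 12 pairs for mir-10a and in 11 for mir-10b. After removal of group and block means, the correlation over entries within a pair exceeded 0.1 in 4 of 12 pairs and was highest with its own number in 1, so the data do not establish the pairing. For stress, 0 entries were called under each of 35 alternatives, and for the interaction under each of 36. The direction of mir-10a in vHC reversed only without swim vHC library 15 (-0.061, against values up to 0.23 without another library). The causes of the changes below were not tested.

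The 2 members called between regions became 1 without the filter or with the intercept-only null model (mir-10b kept in both), 0 with surrogate variables in place of block and 0 with neither, and 1 to 2 when 1 library was left out. mir-10a lost its call without control dHC library 8, 24 or 32, control vHC library 1, 9, 13, 25 or 31, swim dHC library 6, 16 or 30, or swim vHC library 19, 21, 27 or 29 (adjusted p 0.0504 to 0.0978, edgeR). Surrogate variables in place of block raised the log2 difference to 1.32 for mir-10a and 1.43 for mir-10b, while the median of all entries moved to -0.22. They brought the entries called between regions from 167 to 85, and in swim mice from 94 to 58. With neither, the counts were 100, 56 in swim mice and 67 in control mice (104 with block). In control mice 36 entries were called higher and 68 lower with TMM, and 66 and 64 with DESeq2 size factors.

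In swim mice, the 0 members called became 1 (mir-10b) with DESeq2, and 0 to 1 with 1 library left out: control dHC library 14 or 24, control vHC library 1, 13 or 17, swim dHC library 20, 22 or 28, or swim vHC library 15 (adjusted p 0.0359 to 0.0492, edgeR). The 2 members called between blocks became 1 with DESeq2 size factors or TMMwsp, and 0 to 2 with 1 library left out. mir-10b lost this call without control dHC library 8, control vHC library 7 or swim dHC library 16 or 20 (adjusted p 0.0552 to 0.0934, edgeR). mir-10a lost it also without control dHC library 26 or 32, control vHC library 9, swim dHC library 22 or swim vHC library 15, 19, 27 or 29 (up to 0.117). With 1 library left out, the differences in the mir-10b to mir-10a ratio were 0.10 to 0.17 (swim against control in vHC), 0.10 to 0.17 (region in control mice) and 0.078 to 0.12 (region). At 11 to 150.5 counts per library, depth limits the mir-10 values, and the other members were tested only without the filter.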
